A study of Gallus gallus with 8 samples.

Results

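The genes described here encode NF-kB transcription factor subunits and inhibitors that are themselves induced by inflammatory signals and then dampen them. The 10 genes were chosen by symbol from the gene identifiers of the mRNA table, and all 10 were among its 26296 genes. They comprised 4 subunit genes (NFKB1, NFKB2, REL and RELB) and 6 inhibitor genes (NFKBIA, NFKBIE, NFKBIZ, TNFAIP3, SOCS1 and SOCS3). All 10 had at least 20 counts in 1 library, the minimum used to call a gene measured, as did 15268 genes in total.

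Tracheas of 42-day-old chickens (Gallus gallus) were the source of the libraries. Birds of the exposed group lived in chambers kept at 3.5 to 4.5 mg/kg hydrogen sulfide (H2S), an irritant gas of poultry houses, during weeks 0 to 3 and at 19.5 to 20.5 mg/kg during weeks 4 to 6, and the control chamber received no added gas. The comparison asked which tracheal transcripts differ after exposure, and here it rested on 1 H2S mRNA library and 1 control mRNA library, both numbered 3, with totals of 20839798 and 18875586 counts. Breed, sex, the number of birds behind each library and whether birds were pooled were not stated in the sources used here. Group and chamber cannot be told apart.

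In resting cells, NF-kB dimers are held in the cytoplasm by IkB proteins. Inflammatory receptors activate the IKK kinases, which mark IkB for destruction, and the freed dimers enter the nucleus and switch on cytokine, chemokine and survival genes. Among their targets are the IkB genes themselves and TNFAIP3, so the pathway makes its own brakes. SOCS1 and SOCS3 act on a neighbouring route: they bind cytokine receptors or their JAK kinases and limit STAT signalling. In airway lining these routes respond to microbes, cytokines and irritants. Roles given below are known mainly from mammals.

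With 1 library per group there was no test between conditions, no p-value and no replicate check. Levels are CPM (counts relative to the scaled size of the library) after TMM scaling, which corrects library size for composition. Each ratio is H2S over control and carries a 95% exact interval that covers counting error only, so it compares these 2 libraries and not the 2 exposures.

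SOCS1 stood apart from the other inhibitors and from all 4 subunits. Its H2S-to-control ratio was 7.40, whereas the other 9 genes lay between 0.756 and 1.66. Of the 10 genes, 1 had a ratio of at least 2, beside 4.71% of all measured genes, and 0 had one of at most 0.5, beside 3.71%. At a fold of 1.5, 2 were higher (SOCS1 and NFKBIE), beside 10.6% of all measured genes, and 0 were lower, beside 9.31%. With 10 genes, these counts are near the background. The counting interval lay above 1 for 7 of the 10 genes, against 27.6% of all measured genes, and below 1 for 0 of them, against 27.7%. Such intervals narrow as counts rise, and these background shares were not matched for counts. The 7 is therefore not read as a shift of the 10 genes. That count of 7 was 5 when the libraries were scaled by total counts (23.3% of all measured genes) and 8 by the upper quartile (28.9%).

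**Figure D1:**
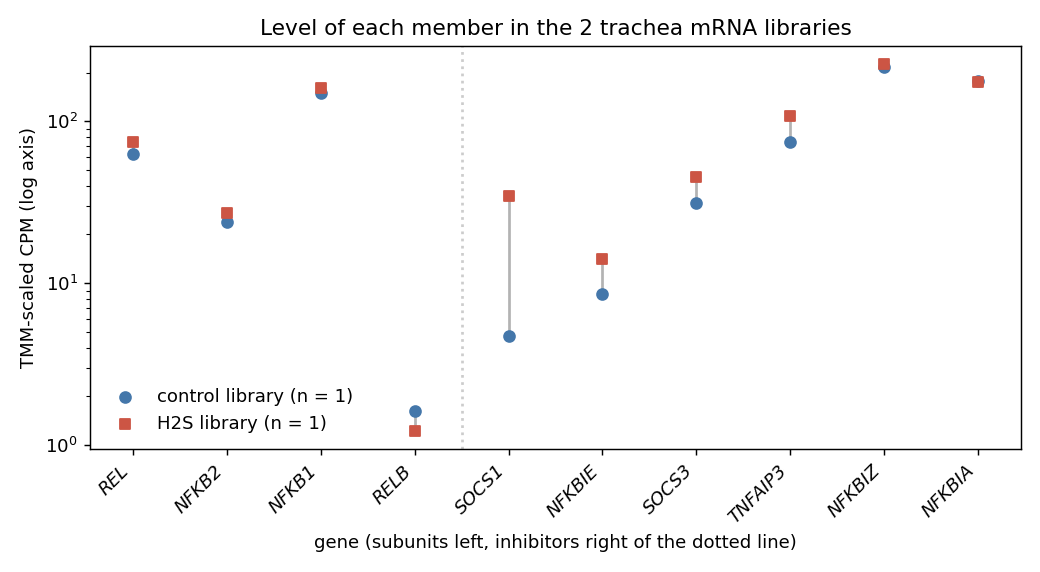
TMM-scaled CPM (log axis) of each gene in the control library (circles) and the H2S library (squares), 1 library each, with subunits on the left and inhibitors on the right. The levels of SOCS1, at 4.69 and 34.7 CPM, are the most widely separated pair. Heights are not corrected for transcript length, so they compare libraries within a gene and not genes with each other.

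The subunit genes differed little between the libraries. NFKB1 encodes p105, which is both the precursor of the DNA-binding p50 subunit and an IkB-like inhibitor before it is processed. It had 3275 H2S and 2866 control counts, or 160 CPM against 149 CPM. The ratio was 1.07 (1.02 to 1.13), and 38.5% of measured genes had a higher one.

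REL encodes c-Rel, a subunit with a transactivation domain that is prominent in lymphocytes and myeloid cells. Its counts were 1521 and 1201, or 74.3 CPM in the H2S library and 62.5 CPM in the control library. The ratio of 1.19 (1.10 to 1.28) was the highest of the 4 subunits, and 25.4% of measured genes exceeded it.

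NFKB2 encodes p100, the precursor of p52 and the substrate of the non-canonical pathway. With 557 against 460 counts (27.2 and 23.9 CPM), its ratio was 1.14 (1.002 to 1.29). The library sizes decided whether the intervals of NFKB1 and NFKB2 reached 1: scaled by total counts, the ratios were 1.03 (0.984 to 1.09) and 1.10 (0.968 to 1.24), and both intervals held 1.

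RELB, the usual partner of p52, was barely detected. It had 25 H2S and 31 control counts, or 1.22 and 1.61 CPM. The ratio of 0.756 (0.428 to 1.32) was the lowest of the 10 genes, and its interval allows both a decrease of over 2-fold and an increase, so no difference was detectable at this depth.

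The makeup of the subunit counts was nearly the same in both libraries. NFKB1 supplied 60.9% of the 5378 subunit counts of the H2S library (exact interval 59.6 to 62.2) and 62.9% of the 4558 in the control library (61.5 to 64.3). REL supplied 28.3% (27.1 to 29.5) and 26.3% (25.1 to 27.7). For each of these genes the 2 intervals overlapped, which shows neither that the shares were equal nor that they differed. The difference in share was not given an interval of its own. These shares follow transcript length as well as abundance, so they describe the libraries and not the relative amounts of the subunits.

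RELA, which encodes p65, the main transactivating partner of p50, is not among the 10 genes but completes the family. It had 207 and 149 counts and a ratio of 1.30 (1.05 to 1.62). Adding it moved the median log2 ratio of the subunits from 0.14 to 0.18.

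The 6 inhibitors fell into a set near 1 and a set above it. NFKBIA encodes IkB-alpha, the classical inhibitor that NF-kB re-induces within its own feedback loop. Its counts were 3602 (H2S) and 3389 (control), or 176 CPM in each. The ratio was 0.997 (0.951 to 1.04), close to the middle of all measured genes, of which 50.5% had a higher ratio.

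NFKBIZ encodes IkB-zeta, a nuclear IkB protein that both restrains NF-kB and acts as a co-activator at a subset of its targets. It had 4618 and 4190 counts (225 and 218 CPM), a ratio of 1.03 (0.991 to 1.08). The signs of NFKBIA and NFKBIZ turned with the scaling, over ranges of 0.963 to 1.01 and 0.998 to 1.04, so no direction is given for either gene.

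TNFAIP3, or A20, is a ubiquitin-editing enzyme that shuts down signalling from TNF receptors and Toll-like receptors upstream of IKK. Its counts were 2201 and 1429, or 107 CPM in the H2S library and 74.4 CPM in the control library. The ratio was 1.44 (1.35 to 1.55), and 12.0% of measured genes had a higher one.

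NFKBIE encodes IkB-epsilon, a slower-acting IkB that binds dimers with c-Rel and p65. It had 290 H2S and 164 control counts, or 14.2 and 8.54 CPM. Among the IkB genes it had the highest ratio, at 1.66 (1.36 to 2.02), and 7.72% of measured genes exceeded it. NFKBIB, which encodes the related IkB-beta, had 300 and 294 counts and a ratio of 0.957 (0.812 to 1.13).

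SOCS3 encodes the inhibitor of signalling through gp130, the shared receptor chain of the IL-6 family. It had 927 and 601 counts, or 45.3 CPM in the H2S library and 31.3 CPM in the control library. Its ratio of 1.45 (1.30 to 1.61) was almost the same as that of TNFAIP3.

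SOCS1 encodes the inhibitor of JAK kinases that limits interferon signalling and is itself induced by interferon. It rested on 710 H2S and 90 control counts, or 34.7 and 4.69 CPM. The ratio was 7.40 (5.93 to 9.32), which ranked 63 of 15268 measured genes, with 0.406% of them higher. SOCS1 made up 5.75% of the inhibitor counts in the H2S library (5.35 to 6.18) and 0.913% in the control library (0.734 to 1.12).

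**Figure D2:**
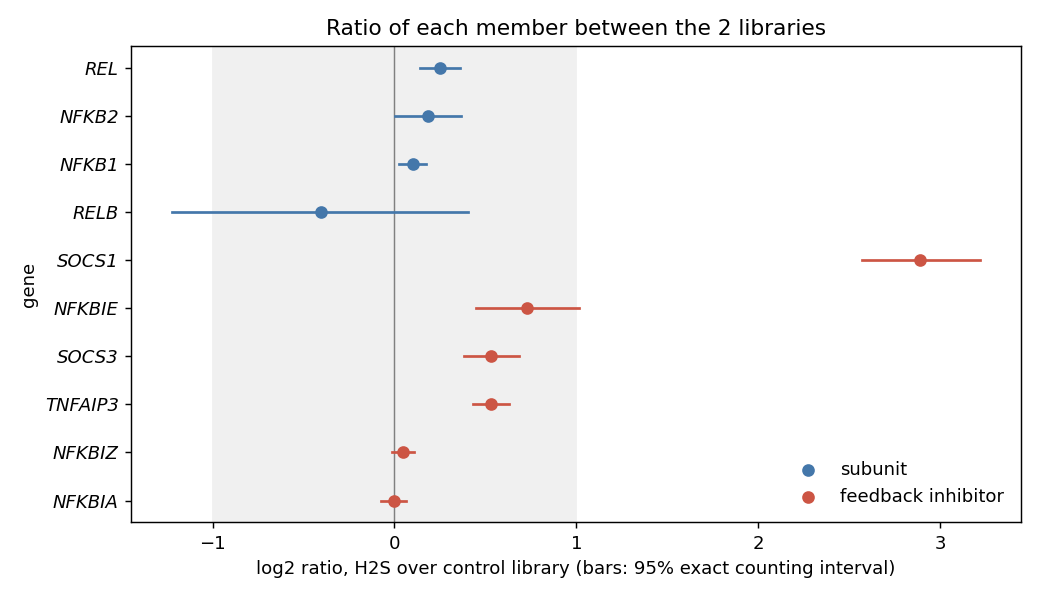
The log2 ratio of each gene, H2S over control library, with its 95% exact counting interval (bars), for subunits (upper 4) and inhibitors (lower 6). The grey band spans ratios within 2-fold. SOCS1 at 2.89 is the only point outside it, NFKBIE, SOCS3 and TNFAIP3 lie between 0.53 and 0.73, and the interval of RELB is the widest.

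Reads of overlapping genes cannot be told apart, since the counting rule and strandedness were not given in the sources used here. By the order of genes in RefSeq for the GRCg7b assembly, which may not be the build of the counts, RMI2 overlaps SOCS1, MANBA overlaps NFKB1 and PSD overlaps NFKB2. Non-coding genes overlap NFKB1, NFKB2, REL and NFKBIZ as well, and RELB could not be placed by its symbol. RMI2, a DNA repair gene, had 780 H2S and 508 control counts, a ratio of 1.44 (1.29 to 1.61). The genes that flank SOCS1, CLEC16A and CYTH3, had ratios of 1.18 (1.09 to 1.27) and 1.11 (0.971 to 1.26). Whether reads of the overlap entered the SOCS1 or the RMI2 counts was not tested. MANBA and PSD had ratios of 0.976 (0.909 to 1.05) and 0.672 (0.494 to 0.911).

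Set against each other, the inhibitors were higher than the subunits by a small margin that depended on the SOCS genes. The median log2 ratio was 0.53 over the 6 inhibitors and 0.14 over the 4 subunits, beside -0.00066 over all measured genes, a difference of 0.39 (0.047 to 0.64, from the medians of the counting bounds). Without SOCS1 and SOCS3, the median of the 4 remaining inhibitors was 0.29 and the difference 0.15 (-0.15 to 0.35). Summed over each class, the H2S library held 2.30 inhibitor counts per subunit count and the control library 2.16, a ratio of 1.06 (1.01 to 1.11). Without SOCS1 and SOCS3, the inhibitor sums were 10711 (H2S) and 9172 (control), beside subunit sums of 5378 and 4558. Per subunit count, the H2S library was then no higher than the control library.

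The ratio of an inhibitor to a subunit within a library does not depend on how the libraries are scaled. Among the 24 inhibitor and subunit pairs, the inhibitor-to-subunit count ratio was higher in the H2S library for 16, with a counting interval above 1, lower for 3 and not distinguishable from 1 for 5. The 24 pairs share 10 genes and are not independent, and without the SOCS genes 8 of 16 were higher, 3 lower and 5 not distinguishable. The share of other gene pairs with such intervals was not computed, so these counts have no background and restate the single ratios. SOCS1, SOCS3, TNFAIP3 and NFKBIE were each higher relative to all 4 subunits. TNFAIP3 per NFKB1, for example, went from 0.499 in the control library to 0.672 in the H2S library, a ratio of 1.35 (1.24 to 1.47).

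NFKBIA and NFKBIZ supplied the 3 lower pairs. NFKBIA per REL was 2.82 in the control library but 2.37 in the H2S one, a ratio of 0.839 (0.767 to 0.918), and NFKBIZ per REL had a ratio of 0.870 (0.797 to 0.950). NFKBIA per NFKB1 had a ratio of 0.930 (0.868 to 0.997). The largest ratio among the well-counted subunits was that of SOCS1 per NFKB1, at 6.90 (5.50 to 8.74), from 0.0314 in the control library to 0.217 in the H2S library.

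**Figure D3:**
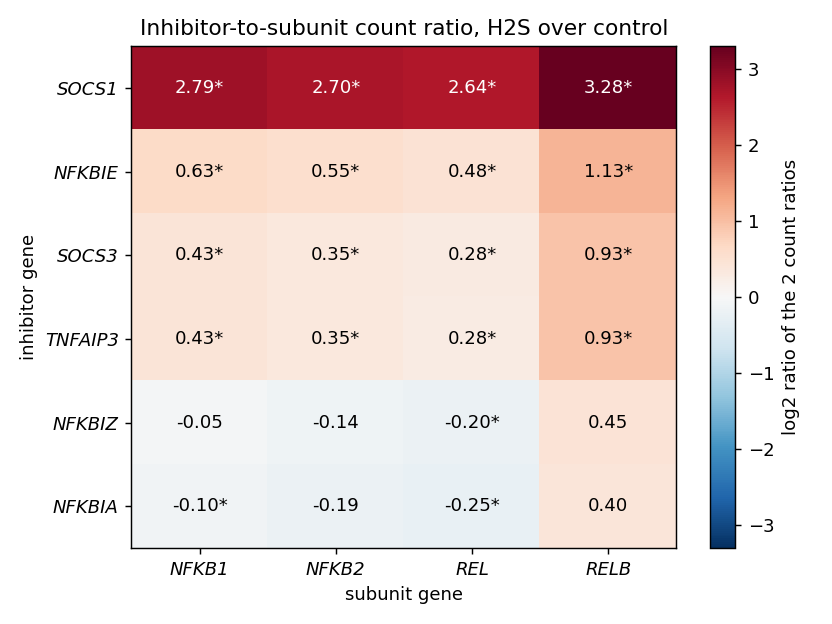
Each cell gives the log2 of the inhibitor-to-subunit count ratio in the H2S library over that in the control library, for 6 inhibitors (rows) and 4 subunits (columns), and an asterisk marks a 95% counting interval that leaves out a ratio of 1. The SOCS1 row runs from 2.64 to 3.28, the next 3 rows are positive throughout, and the NFKBIZ and NFKBIA rows are negative against NFKB1, NFKB2 and REL.

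Upstream of the subunits, MYD88 and the kinase IKBKE had the highest ratios in the list of the IKK complex and upstream kinases. Of its 20 measured genes, 2 were at least 2-fold higher (beside 4.71% of all measured genes), 0 were lower by that much (beside 3.71%), and the median log2 ratio was 0.15. MYD88, the adaptor of most Toll-like receptors, had 6387 H2S and 1908 control counts, a ratio of 3.14 (2.98 to 3.31). IKBKE, an IKK-related kinase that also activates interferon regulatory factors, had a ratio of 2.58 (2.21 to 3.01). TAB3 and MAP3K1 were lowest, at 0.928 and 0.828.

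The list of TRAF and ubiquitin adaptors had 16 measured genes, with a median log2 ratio of 0.08. Of these, 1 was at least 2-fold higher (beside 4.71% of all measured genes) and 0 were lower by that much (beside 3.71%). BIRC2, a ubiquitin ligase of TNF receptor complexes, had 12671 and 4076 counts and a ratio of 2.92 (2.81 to 3.02). TRAF3IP2, the adaptor of IL-17 receptors, had one of 1.75 (1.45 to 2.13). At the other end were TRADD at 0.950 and the death adaptor FADD at 0.785.

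Receptors and ligands went both ways. In the receptor list, 1 of 17 measured genes had a ratio of at least 2 (beside 4.71% of all measured genes). Another 1 had one of at most 0.5 (beside 3.71%), and the median log2 ratio was 0.0027. TNFRSF8 and TNFRSF18 had ratios of 2.04 (1.65 to 2.54) and 1.92 (1.72 to 2.15), and EDAR and TNFRSF13B, a receptor of B lineage cells, had ratios of 0.535 and 0.495. In the ligand list 4 of 11 measured genes were at least 2-fold higher (beside 4.71% of all measured genes), 0 were lower by that much (beside 3.71%) and the median log2 ratio was 0.03. IL1B, the inflammatory cytokine interleukin-1 beta, had 51 against 18 counts and a ratio of 2.66 (1.53 to 4.83), and TNFSF15 had one of 2.38 (1.99 to 2.85). LITAF, a regulator of TNF production that is listed here but is not itself a ligand, was at 0.664. TNFSF13B, a B cell survival factor, was at 0.776. The listed TNF, LTA, LTB, TNFSF13 and IL1A were not found by symbol among the genes counted.

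Other brakes on NF-kB, outside the 6 inhibitors, also split. Of 17 measured genes, 4 were at least 2-fold higher (beside 4.71% of all measured genes), 0 were lower by that much (beside 3.71%), and the median log2 ratio was 0.14. USP18, a protease that removes ISG15 and restrains the interferon receptor and also stands in the interferon-stimulated list used here, had a ratio of 5.38 (5.14 to 5.64), and TRAFD1 one of 3.06 (2.88 to 3.25). SIGIRR, a decoy-like receptor of the IL-1 family, and DUSP1, a phosphatase of MAP kinases, were lowest, at 0.510 (0.361 to 0.713) and 0.569 (0.538 to 0.601).

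The target genes of NF-kB had a higher median ratio than either class of the 10 genes. Of 37 measured targets, 13 had a ratio of at least 2, beside 4.71% of all measured genes. A ratio of at most 0.5 was found for 0 of them, beside 3.71%. The median log2 ratio was 0.65, and 32 of the 37 ratios were above 1, beside 49.9% of all measured genes. The chemokine gene CCL4 had 750 against 96 counts and a ratio of 7.33 (5.92 to 9.16), and IL8L2, a chicken interleukin-8 gene, had 100 against 14 and one of 6.70 (3.81 to 12.7). CD80 and the chemokine gene CCL5 were lowest, at 0.566 and 0.549. Many of these targets also answer to interferon or other signals, and the list was made with earlier results of these libraries known.

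**Figure D4:**
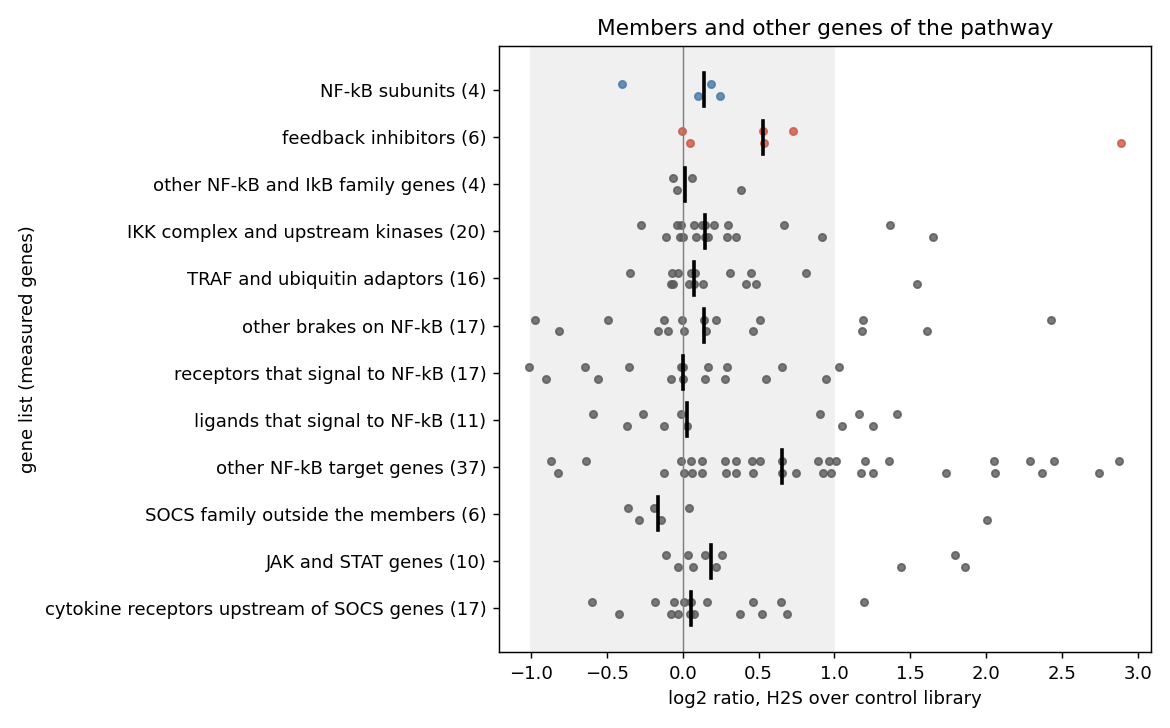
The log2 ratio, H2S over control library, of each measured gene (points) in the 12 lists of the pathway, with the number measured in brackets and the median of each list as a black bar. The grey band spans ratios within 2-fold. The target gene list has the highest median, 0.65, followed by the inhibitors at 0.53, and the other SOCS genes have the lowest, -0.16.

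Most of the remaining SOCS genes had ratios near or below 1. Of the 6 others, 1 was at least 2-fold higher (beside 4.71% of all measured genes) and 0 were lower by that much (beside 3.71%). Their median log2 ratio was -0.16. SOCS7 had a ratio of 4.02 (1.73 to 10.8) from 30 against 7 counts. CISH and SOCS2, which restrain STAT5 signalling from growth hormone and cytokine receptors, had ratios of 0.779 (0.686 to 0.884) and 0.818 (0.690 to 0.970), and SOCS6 was at 1.03.

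Of 10 JAK and STAT genes, which act upstream of SOCS1 and SOCS3, 3 were at least 2-fold higher (beside 4.71% of all measured genes). Another 7 were within 2-fold, beside 13983 of all 15268 measured genes, and 0 were lower by that much (beside 3.71%). STAT2, which carries the type I interferon signal, had 1207 against 312 counts and a ratio of 3.63 (3.20 to 4.12). STAT3, the factor best known for inducing SOCS3, had 5978 and 5342 counts and a ratio of 1.05 (1.01 to 1.09), named after its value was seen. TYK2 and JAK3 were lowest, at 0.979 and 0.926. Of 17 measured cytokine receptors, 1 was at least 2-fold higher (beside 4.71% of all measured genes) and 0 were lower by that much (beside 3.71%). The higher one was IL22RA1, the epithelial receptor chain of IL-22, at 2.28 (2.06 to 2.54). IL2RG, the common gamma chain of lymphocyte cytokine receptors, was lowest at 0.662 (0.574 to 0.763), and IL4R and GHR were at 0.747 and 1.61 (0.914 to 2.90).

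Other signals differed between the same libraries. All 20 measured genes of an interferon-stimulated list had a ratio of at least 2, beside 4.71% of all measured genes. Their median log2 ratio was 2.58 and their summed level 13440 CPM against 1801 CPM in the control library. None of the 10 genes is in that list, which was chosen with earlier results of these data known. Their absence from it is therefore not a result, and whether they answered to interferon here was not tested.

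Markers of immune cells, in which REL and RELB have their best-known roles, went different ways. The 11 measured B cell markers summed to 353 CPM in the H2S library and 251 CPM in the control library. Ratios above 1 were found for 8 of them, beside 49.9% of all measured genes. Of all 15268 measured genes, 7652 had a ratio below 1. The 13 T cell markers summed to 181 and 223 CPM with 11 ratios below 1. The 12 macrophage and dendritic cell markers summed to 996 and 1410 CPM with 10 below 1. The 8 plasma cell markers summed to 1614 and 6708 CPM with 6 below 1, and the 4 measured heterophil and granulocyte markers to 44.9 and 41.4 CPM. Such sums follow their most abundant genes. CD74 gave 761 and 1091 CPM of the macrophage and dendritic cell sums, H2S library first. IGLL1 gave 867 and 3686 CPM of the plasma cell sums, and IGJ 555 and 2749 CPM. LYZ gave 31.5 and 32.0 CPM of the heterophil and granulocyte sums. In that list S100A9 and CSF3R had ratios of 1.84 and 1.57, and MPO one of 0.388. Its other genes, MIM1, CATHL2, CATHL3, AVBD1 and AVBD2, were not found by symbol among the genes counted. EBF1 gave 101 and 88.6 CPM of the B cell sums. PAX5 gave 80.3 and 18.8 CPM, the widest CPM difference of the 11 B cell markers. The 3 B cell markers below 1 were BCL11A, BLK and BANK1, at 0.852, 0.784 and 0.645. None of the markers measured in these 5 lists was at 0 in either library.

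Markers of other tissues also differed. The 8 skeletal muscle markers all had ratios above 1 (beside 49.9% of all measured genes), with sums of 14677 and 10223 CPM. So did the 9 cartilage markers, with sums of 23099 and 18363 CPM. Of the 12 airway epithelium markers 9 were below 1 (beside 7652 of all 15268 measured genes), with sums of 1253 and 1550 CPM. The 8 endothelium markers split 4 and 4 (1268 and 1325 CPM). The 11 fibroblast and smooth muscle markers summed to 18835 and 19899 CPM, and the 3 measured red blood cell markers to 30.2 and 16.7 CPM. HBE and HBG1 were at 0 in both libraries and were not measured. Cartilage and epithelial markers were both present, as the trachea label implies, and the skeletal muscle sums exceeded the epithelial ones in both libraries. The part of cell makeup in the ratios of the 10 genes was not tested, and in bulk RNA more cells of a type cannot be told apart from more transcript per cell.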

How the data were processed

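The authors deposited raw counts per gene for 1 H2S and 1 control trachea mRNA library, and per the submitters' processing notes reads were aligned with HISAT2. Its version, the genome build, the annotation, the counting tool and strandedness were not stated in any source used here. Per the labels' protocols, RNA was extracted with Trizol and had an integrity number above 8.0. Counts over 26296 genes totalled 20839798 (H2S) and 18875586 (control). The small RNA libraries, 3 per group, were not used here.

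Library sizes were scaled by TMM in edgeR 4.0.16 (R 4.3.3). Ratios carry 95% Clopper-Pearson intervals of the conditional binomial, and pairs of genes carry exact conditional odds ratio intervals (SciPy 1.17.1). Both cover counting error only, and reads without molecular identifiers are not independent molecules. A count of 0 would be replaced by a floor of 3. Interval coverage was checked on simulated counts. A gene was called measured at a minimum of 20 counts in either library, and the fold threshold was 2. A gene could therefore pass through only the library where it was higher, in the lists as among all measured genes. Of 11525 LOC identifiers, 470 received a symbol from the RefSeq table. The alternatives were 5 other scalings (DESeq2 1.42.0 size factors among them), 2 count filters, a fold of 1.5, changed class lists and means.

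The members and lists were chosen with earlier results of these data known. The text names the 10 members, RELA, and the 2 highest and 2 lowest ratios of each pathway list. Among these were NKIRAS2 and NKIRAS1 of the other NF-kB and IkB family genes, at 1.04 and 0.974. A gene that this rule also takes is not reported here. NFKBIB and the overlapping or flanking genes were named for their relation to the members. STAT3, CD40LG, IL8L1, IL6 and the cell type markers given singly were named after their values were seen. Promoter and protein sequences were not used here.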

Additional observations from a re-analysis of the deposited data

How the results depend on the processing

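No paired analysis was possible because the mRNA comparison has 1 library per group and no test. None of the alternatives run turned a ratio whose counting interval left out 1, and the ratio of SOCS1 ranged from 7.15 to 7.47 over them. In 69 recomputed member ratios, 69 stayed within the counting interval of the reported value. This is a weak check, since the count filters cannot change a ratio and each scaling moves all members by a common factor. Leaving out SOCS1 and SOCS3 lowered the inhibitor median log2 ratio to 0.29, and the mean in place of the median raised it to 0.79 and the inhibitor minus subunit difference to 0.76, since the mean follows SOCS1. With a fold of 1.5, 2 members were higher (SOCS1 and NFKBIE), beside 1611 genes higher and 1422 lower of all measured. Without a filter on low counts, 1858 genes were at least 2-fold higher and 1916 lower, and with at least 100 counts in 1 library 313 and 218, against 719 and 566 in the report; RELB was not measured at that filter. Leaving out RELB, an alternative chosen after its counts were seen, gave a subunit median of 0.18. The median log2 ratio of all measured genes lay between -0.05 (total counts) and 0.01 (upper quartile) over the scalings. Depth limits RELB most, at 25 and 31 counts. The count of members with an interval above 1 under each scaling was added after the data were seen.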
